A study of Mus musculus with 2 samples.

Results

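The regions described here lie on stretches of the mouse genome that the mm9 assembly could not put in place. They were chosen by the name of their sequence alone: every region listed on a sequence named random or Un was taken, and those on X_random and Y_random were left out. This gave 684 of the 41561 regions of the study (1.65%), on 10 sequences. H3K4me3, the trimethyl mark on lysine 4 of histone H3, had been mapped by ChIP followed by sequencing in LSK cells of the bone marrow, the fraction of blood stem and progenitor cells that carries Sca1 and KIT. One library came from wild-type C57BL/6 mice (WT) and 1 from C57BL/6 mice heterozygous for a knock-in of the Mll partial tandem duplication (Mll-PTD). The cells of both were taken by beads against CD117 and then Sca1, no other sort is described, and neither the age nor the number of mice is given in the sources used here. Depth was 58083118 tags in Mll-PTD and, from the scaling of the deposited values, 43579382 in WT.

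H3K4me3 sits on nucleosomes at active and poised gene starts, and Mll, now named Kmt2a, encodes one of the enzymes that write it. The partial tandem duplication, known from acute myeloid leukaemia, repeats an internal stretch of the gene and so of the protein. When mm9 was built, contigs that could be assigned to a chromosome but not to a position on it were joined into a sequence such as 1_random, and contigs without a known chromosome into Un_random. Such contigs are often rich in duplicated and repeated sequence, and the order of contigs within a joined sequence need not be their order in the genome. How reads that match several places were aligned is not given in the sources used here. Gene positions of mm9 were not used here, so regions are given by position only, and neither genes nor base sequences are shown.

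All regions were called where Mll-PTD exceeded WT at least 4-fold, so the direction of each is fixed by the list, and regions higher in WT were not analysed here. With 1 library per genotype there was no test between genotypes, and genotype, library and any difference in immunoprecipitation cannot be told apart. More marked cells and more mark per cell cannot be told apart either. Mll-PTD tags are given scaled to the WT library, ratios are Mll-PTD over WT, and every interval is a 95% exact interval that covers counting error only.

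Together the contig regions covered 920 kb. They held 70972 scaled Mll-PTD tags against 10383 WT tags, a ratio of 6.84 (6.70 to 6.98). Regions on the 19 placed autosomes had a summed ratio of 7.76 (7.72 to 7.79), so the contig ratio was lower by more than counting error. That order came from 2 of the 10 sequences, 1_random and 8_random. Without them the other 451 contig regions had a ratio of 8.57 (8.21 to 8.94), above that of the placed autosomes. The contig set was therefore a mixture of 2 densely covered sequences with low ratios and a sparser remainder with a higher summed ratio.

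The middle of the set looked much like the rest of the list. Scaled Mll-PTD tags had a median of 38.3 in contig regions (quartiles 25.5 and 86.3), and WT tags one of 5 (3 and 12). On the placed autosomes these were 29.3 (24 and 45.8) and 4 (2 and 6). With 1 tag added to each library, log2 ratios had a median of 2.67 in contigs and 2.69 on the placed autosomes. A fold of at least 8 in the authors' deposited table was reached by 316 of the 684 contig regions, or 46.2%, against 47.0% of all regions. That share is at the background, and it too was a mixture: it was 34.3% of the 233 regions on 1_random and 8_random (80 regions, 28.3% to 40.8%) and 52.3% of the other 451 (236 regions, 47.6% to 57.0%).

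**Figure D1:**
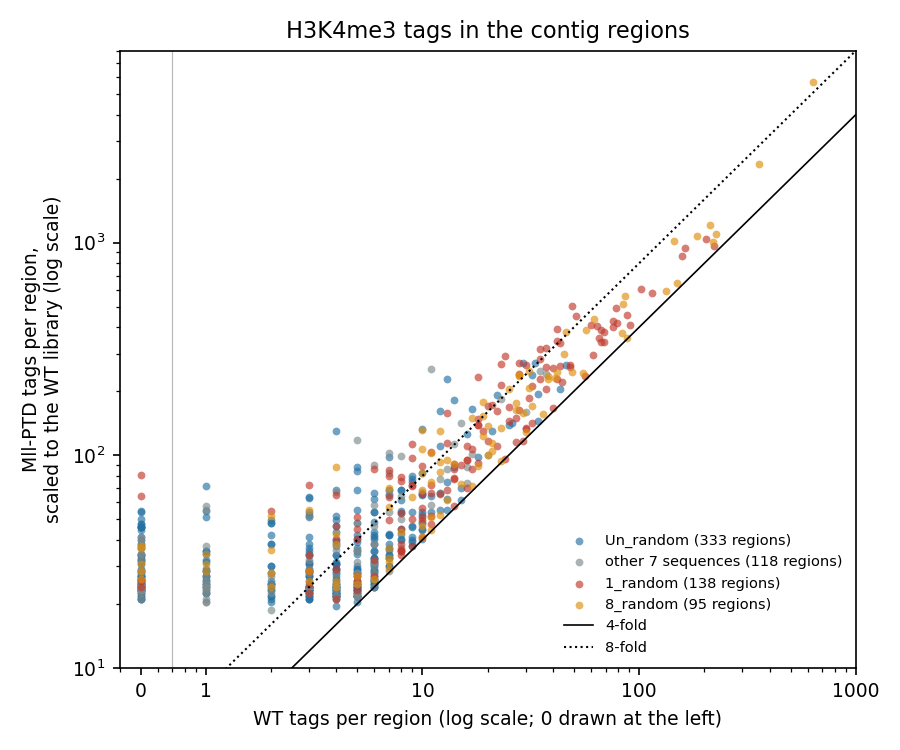
Scaled Mll-PTD tags (y, log scale) against WT tags (x, log scale, with 0 drawn at the left edge) for each of the 684 contig regions, coloured by sequence. All points lie at or above the solid 4-fold line, and the 38 regions with at least 50 WT tags are all from 1_random (22) and 8_random (16).

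1_random and 8_random held most of the signal in few regions. 1_random had 138 regions, 25304 scaled Mll-PTD tags and 4074 WT tags. 8_random had 95 regions, 25573 scaled Mll-PTD tags and 3964 WT tags. These are 34.1% of the contig regions but 71.7% of their Mll-PTD tags. The regions were long, with a median of 1560 bases on 1_random and 1304 on 8_random, against 500 on the placed autosomes and on Un_random. Of the regions on 1_random and 8_random, 60.1% were longer than 1000 bases, against 17.9% on the placed autosomes.

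The listed regions covered a large part of both sequences. On 1_random they took 26.4% of the 1194 kb between the first and the last region, and on 8_random 25.5% of 849 kb. On the placed autosomes the share was 1.29%, so the cover was 20.5 times as high on 1_random and 19.8 times as high on 8_random. Spans include any filler between contigs, which lowers the contig shares.

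Most of these regions stood in a few blocks, which were defined as runs of regions less than 10 kb apart. On 1_random, 122 of 138 regions fell in 3 blocks of at least 10 regions, and on 8_random 78 of 95 fell in 4. The largest block, 1_random from 699221 to 931989, held 60 regions with 9293 scaled Mll-PTD tags and 1362 WT tags, a ratio of 6.82 (6.45 to 7.22), and regions covered 50.6% of it. The block from 478433 to 646610 held 42 regions with 8004 scaled Mll-PTD tags and 1403 WT tags, a ratio of 5.71 (5.40 to 6.04). In the block from 991242 to 1090169, 20 regions covered 68.7% and held 5379 scaled Mll-PTD tags and 925 WT tags, a ratio of 5.81 (5.43 to 6.23). The 3 blocks were alike in Mll-PTD density, at 78.8 to 79.1 scaled tags per kb of region. They differed in WT density, at 11.6 per kb in the block with the highest ratio and 13.8 and 13.6 in the others.

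The 4 blocks of 8_random varied more in density than those of 1_random. The block from 244 to 96825 held 31 regions with 3843 scaled Mll-PTD tags and 689 WT tags, a ratio of 5.58 (5.15 to 6.05). The block from 110146 to 205831 held 18 regions at 85.6 scaled Mll-PTD and 14.1 WT tags per kb, with a ratio of 6.07 (5.66 to 6.51). The block from 676278 to 771258 reached 204.6 scaled Mll-PTD and 28.4 WT tags per kb, with a ratio of 7.19 (6.81 to 7.61). The block from 805672 to 849409 stood at 155 and 23.7 per kb, with a ratio of 6.56 (6.00 to 7.18). Mll-PTD density ranged 2.73-fold across these blocks while their ratios stayed between 5.58 and 7.19. In the blocks at 204.6 and 155 per kb, a single region held 5697 of 9929 and 2358 of 3614 scaled Mll-PTD tags, respectively.

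Both libraries were denser on 1_random and 8_random than elsewhere, and WT by the larger factor. Per kb, the median region on 1_random held 76.0 Mll-PTD tags after scaling (quartiles 61.8 and 87.2) and 11.5 in WT (8.39 and 15.4). On 8_random these were 80.0 (58.6 and 97.2) and 12.3 (7.85 and 16.8). The placed autosomes had medians of 49.6 (46.2 and 55.9) and 6.36 (3.61 and 10). Relative to them, the Mll-PTD medians were 1.53 and 1.61 times as high on 1_random and 8_random, and the WT medians 1.81 and 1.93 times. An even spread of WT tags over the caller's genome size would give 21.8 per kb, so the median WT region on both sequences was still below that level.

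The higher density was found at each region length. Among regions of 500 bases, the shortest the caller makes, WT stood at a median of 13 tags per kb on 1_random (22 regions) and 8 on 8_random (20 regions), against 6 on the placed autosomes. Among regions of 2001 to 4000 bases, the WT medians were 11.2 and 12.7 per kb, against 6.65. Among regions longer than 4000 bases they were 15.0 and 18.4, against 6.70. On the placed autosomes the WT median changed little with length, and on 1_random and 8_random it was above the autosomal one in each of the 5 length classes.

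**Figure D2:**
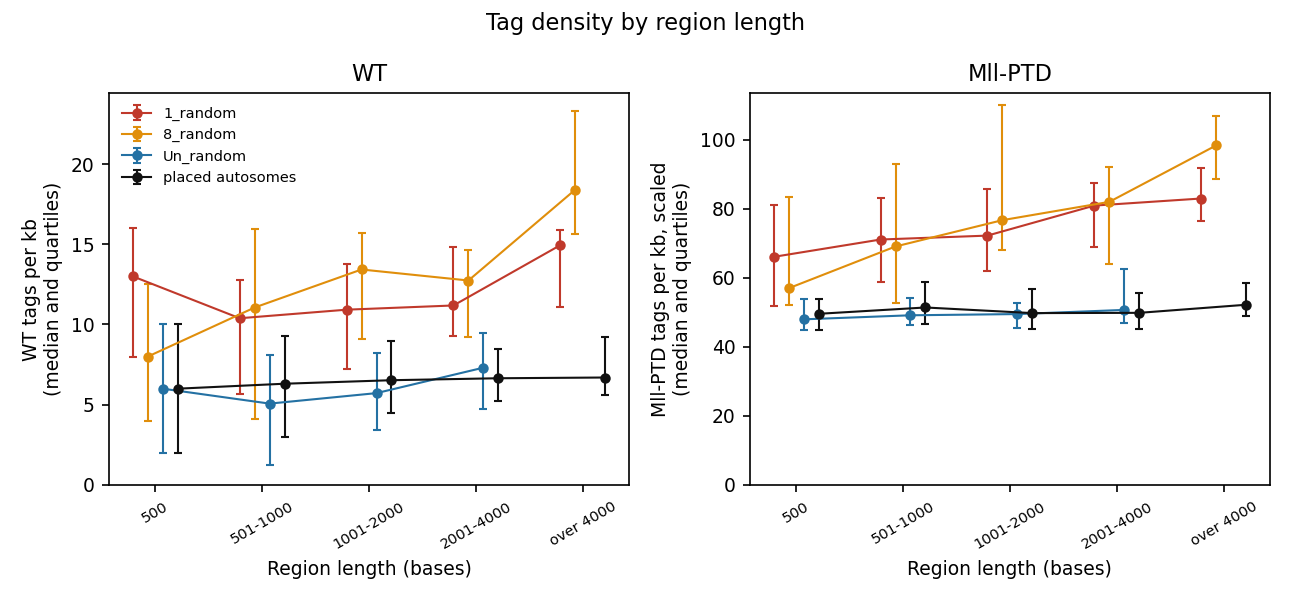
Median WT tags per kb (left) and scaled Mll-PTD tags per kb (right) by region length, with quartiles as bars, for 1_random, 8_random, Un_random and the placed autosomes; classes with under 10 regions are not drawn. The 2 dense sequences lie above the autosomes in every class in both libraries, and Un_random lies near them.

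The ratio was lower on 1_random than on the placed autosomes, with intervals apart, in 5 of 5 length classes, and on 8_random in 4 of 5. In regions longer than 4000 bases it was 5.67 (5.41 to 5.95) on 1_random and 6.33 (6.08 to 6.59) on 8_random, against 6.84 (6.76 to 6.93) on the placed autosomes. In regions of 2001 to 4000 bases it was 6.67 (6.28 to 7.10) and 6.55 (6.09 to 7.07), against 7.52 (7.44 to 7.60). In regions of 500 bases the interval of 1_random lay below the autosomal one, at 5.55 (4.64 to 6.67) against 7.70 (7.64 to 7.76). That of 8_random, 7.62 (6.11 to 9.59), held the autosomal value. Ratios varied between regions by more than counting error. With at least 50 WT tags, log2 ratios had an SD of 0.23 on 1_random and 0.33 on 8_random, against median counting errors of 0.18 and 0.13. Intervals that lie apart therefore show a gap beyond counting error only.

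Stretches like these were rare on the placed autosomes, and those that passed the limits used here lay on chromosomes 1 and 8. The limits used here, a cover above 50% and more than 10 WT tags per kb of region, were set after the values were seen. All 7 large blocks of 1_random and 8_random passed both. Of 183 blocks of at least 10 regions on the placed autosomes, 5 passed both, 3 of them on chromosome 1 and 2 on chromosome 8. None of the 172 large blocks on the other autosomes did, although 5 passed the first limit and 10 the second. Taken as a sample, a count of 0 in 172 would allow a share of up to 1.74%.

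The levels of the placed blocks that passed both limits overlapped those of the contig blocks in part. On chromosome 1, the block from 87343661 to 87565229 held 46 regions with 11613 scaled Mll-PTD tags and 2016 WT tags, a ratio of 5.76 (5.50 to 6.04). The blocks from 85058458 to 85139378 and from 85229047 to 85343715 had ratios of 5.46 (5.07 to 5.89) and 5.77 (5.36 to 6.21). These 3 blocks stood at 74.4 to 83.6 scaled Mll-PTD tags per kb and 12.9 to 14.5 WT tags per kb. The Mll-PTD range takes in all 3 blocks of 1_random, and the WT range leaves out the largest, at 11.6 per kb. The ratio of that block, 6.82 (6.45 to 7.22), also lay above those of the 3 placed blocks, with intervals apart. On chromosome 8, the blocks from 19683862 to 19802749 and from 19853875 to 20030059 had ratios of 6.70 (6.31 to 7.12) and 6.63 (6.35 to 6.93), at 127 and 144 scaled Mll-PTD and 19.0 and 21.8 WT tags per kb. Of the 4 blocks of 8_random, 2 were denser than these in both libraries, at 155 and 204.6 scaled Mll-PTD tags per kb. Each of those 2 densities rests largely on a single region, with 2358 of 3614 and 5697 of 9929 scaled Mll-PTD tags. Block densities without that region were not computed, so the order is that of whole blocks. The other 2 blocks of 8_random, at 74.9 and 85.6 scaled Mll-PTD and 13.4 and 14.1 WT tags per kb, were closer to the placed blocks of chromosome 1. Whether the placed and the unplaced stretches share sequence was not tested.

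**Figure D3:**
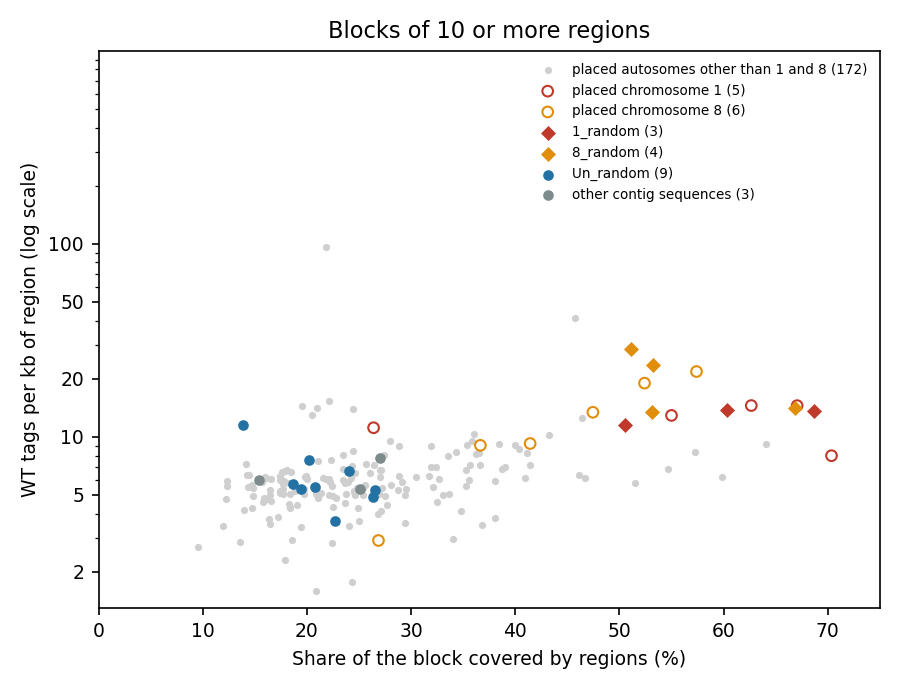
Each point is a block of at least 10 regions less than 10 kb apart: the share of the block covered by regions (x, %) against WT tags per kb of region (y, log scale). The 7 blocks of 1_random and 8_random (diamonds) stand at high cover and high WT density together with 3 blocks of placed chromosome 1 and 2 of placed chromosome 8 (open circles), and the 9 blocks of Un_random lie among the other autosomes.

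On 8_random a single region carried much of the signal. The region from 679325 to 686060 held 5697 scaled Mll-PTD tags against 637 WT tags, a ratio of 8.94 (8.25 to 9.71). It was the fifth of all listed regions by tags and took 22.3% of the Mll-PTD tags on 8_random, at 846 scaled Mll-PTD and 94.6 WT tags per kb. Without it the ratio of 8_random fell from 6.45 (6.24 to 6.67) to 5.97 (5.76 to 6.20). The region from 814661 to 823579 followed, with 2358 scaled Mll-PTD tags, 359 in WT and hence a ratio of 6.57 (5.89 to 7.35). Both were far denser than the median 8_random region in both libraries.

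Most of the other regions of 8_random with at least 50 WT tags had ratios below both of these. The longest, from 133037 to 146646 (13609 bases), held 1215 scaled Mll-PTD tags and 213 WT tags, a ratio of 5.70 (4.94 to 6.61). Its neighbours from 110146 to 121057 and from 121647 to 131985 had ratios of 5.80 (4.98 to 6.80) and 6.99 (5.89 to 8.36). The region from 708291 to 719164 held 1096 scaled Mll-PTD tags and 226 WT tags (ratio 4.85, 4.21 to 5.61), and that from 373326 to 382735 held 1006 and 220 (4.57, 3.96 to 5.30). Lowest of all contig regions with at least 50 WT tags was 198016 to 204632, with 357.9 Mll-PTD to 88 WT tags (ratio 4.07, 3.23 to 5.17). Also low on 8_random were the regions from 732164 to 738561 and from 93072 to 96825, at 4.33 (3.63 to 5.18) and 4.45 (3.33 to 6.03). A region beside the densest one, from 676278 to 678664, held 438.2 Mll-PTD to 62 WT tags (ratio 7.07, 5.43 to 9.34). Ratios near 4 are cut by the list's threshold, so lower ones could not be seen.

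On 1_random no region stood out to the same degree. The longest contig region, from 1046526 to 1060308 (13782 bases), held 1046 scaled Mll-PTD tags and 203 WT tags, a ratio of 5.15 (4.44 to 6.00). It took 4.13% of the sequence's Mll-PTD tags. The region from 488228 to 499797 held 964.1 and 222 tags (ratio 4.34, 3.76 to 5.03), and the region from 1066143 to 1075868 held 948.4 and 163 (5.82, 4.94 to 6.89). The highest ratio among its 22 regions with at least 50 WT tags was that of 790777 to 795676, with 453.9 against 51 tags (8.90, 6.68 to 12.1), and the next was 808630 to 812345, with 408.9 against 60 tags (6.82, 5.21 to 9.05). The lowest was 915831 to 919652, with 236.3 against 56 (4.22, 3.17 to 5.71). The highest and the lowest were picked by this ratio, so the gap between them is a description. Over the 22 regions the log2 ratios had an SD of 0.23, against a median counting error of 0.18.

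A short, tall region on 1_random, named after its values were seen, broke the pattern of long regions. From 272411 to 273426 (1015 bases) it held 506.4 scaled Mll-PTD tags and 49 WT tags, a ratio of 10.3 (7.73 to 14.1). Its density was 499 scaled Mll-PTD tags per kb, against the median of 76.0 on its sequence.

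Over all contig regions with at least 50 WT tags, the median ratio was 5.48 (quartiles 4.85 and 6.25, range 4.07 to 8.94, 38 regions). The 183 such regions of the placed autosomes had a median of 5.49 (quartiles 4.76 and 6.17). With the same minimum of WT tags, contig and autosomal regions thus had nearly the same median ratio. That minimum selects on the lower term of the ratio, and the list cuts ratios at 4. The likeness may be set in part by these limits, so no conclusion is drawn from it. Contigs held many more of them, 38 of 684 (5.56%) against 0.561% of all regions. The 451 contig regions outside 1_random and 8_random held 0 of them, a count that, taken as a sample, would allow a share of up to 0.665%. The spread of log2 ratios over the 38 regions was 0.28 (SD), against a median counting error of 0.17. It describes variation between regions of these 2 libraries and says nothing of other mice.

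Un_random held the most regions and resembled the placed autosomes in the median length and tag density of its regions, but not in cover. Its 333 regions held 14506 scaled Mll-PTD tags and 1719 WT tags, a ratio of 8.44 (8.03 to 8.87), which lay above the 7.76 of the placed autosomes. Its median region stood at 49.1 Mll-PTD tags per kb after scaling (quartiles 46.3 and 54) and 6 per kb in WT (2.58 and 9.10). The caller's tag threshold holds weak regions near that Mll-PTD density, so the likeness in Mll-PTD is largely set by the list. By length, the ratio was 7.91 (7.24 to 8.66) in its 168 regions of 500 bases and 7.73 (6.99 to 8.58) in its 19 regions of 2001 to 4000 bases, and both intervals hold the autosomal values of 7.70 and 7.52. Of its 5 length classes, only in the 100 regions of 501 to 1000 bases did the interval, 10.1 (9.10 to 11.2), lie apart from the autosomal 8.53 (8.45 to 8.61). Un_random was less densely covered than 1_random, with 4.79% of 5867 kb, but more densely than the placed autosomes, at 1.29%. Blocks of at least 10 regions held 40.5% of its regions, against 9.21% on the placed autosomes.

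Blocks of Un_random ranged widely in ratio and in WT density. The 18 regions from 1851832 to 1921810 held 764.1 scaled Mll-PTD tags and 58 WT tags, a ratio of 13.2 (10.1 to 17.5), and 7 of them had no WT tag. The 10 regions from 2403431 to 2448035 held 310 and 71, a ratio of 4.37 (3.39 to 5.70), and each had a WT tag. Mll-PTD density was 48.0 and 50.3 scaled tags per kb in the 2 blocks, while WT density was 3.65 and 11.5. Both Mll-PTD values lie where the caller's tag threshold holds weak regions, so their closeness is largely set by the list. The 20 regions from 2097563 to 2177391, the largest block of Un_random, had a ratio of 8.19 (6.56 to 10.4). The region of Un_random with the most tags, from 3839951 to 3843532, held 264.9 scaled Mll-PTD tags and 46 WT tags, a ratio of 5.76 (4.23 to 8.01).

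The remaining 7 sequences held 118 regions, 5588 scaled Mll-PTD tags and 626 WT tags, a ratio of 8.93 (8.23 to 9.70). 5_random had 43 regions and a ratio of 8.98 (7.71 to 10.5), 7_random 22 and 8.29 (7.07 to 9.76), and 4_random 14 and 8.64 (6.97 to 10.8). 13_random had 11 regions and a ratio of 10.2 (7.62 to 14.1), and 9_random 10 and 5.96 (4.50 to 8.04). These 5 sequences had intervals that overlapped those of the placed chromosomes of the same number. 3_random had 1 region, from 878 to 1378, with 20.3 scaled Mll-PTD tags and 1 WT tag, whose ratio of 20.3 has an interval from 3.34 to 829.

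17_random stood apart among the small sequences, but on 1 region. Its 17 regions had a ratio of 11.5 (9.22 to 14.6), above the 8.27 (8.12 to 8.43) of placed chromosome 17. The region from 323615 to 326743 gave 27.1% of its Mll-PTD tags, with 255.8 scaled tags against 11 in WT, a ratio of 23.3 (12.8 to 47.0). Without it the ratio was 9.72 (7.62 to 12.5), and the interval held the value of chromosome 17.

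The leading regions of the other small sequences were short of WT tags. On 4_random, 8595 to 11629 held 249.1 scaled Mll-PTD tags against 35 (ratio 7.12, 5.02 to 10.4), and on 7_random, 309035 to 314374 held 240.8 against 37 (6.51, 4.62 to 9.42). On 5_random, 8565 to 11064 held 99.8 against 20 (4.99, 3.10 to 8.43), on 13_random, 349283 to 350893 held 99 against 8 (12.4, 6.10 to 29.3), and on 9_random, 415011 to 416828 held 77.3 against 12 (6.44, 3.53 to 12.9). These 5 intervals overlap one another, so their order was not resolved at this depth.

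1_random and 8_random differed from their placed chromosomes in the other direction. 1_random had a ratio of 6.21 (6.01 to 6.42) against 7.35 (7.25 to 7.46) on placed chromosome 1, and 8_random 6.45 (6.24 to 6.67) against 7.38 (7.25 to 7.51) on placed chromosome 8. Of 9 such pairs, 3 had intervals that lay apart, those of 1_random, 8_random and 17_random. For comparison, the unlocalised sequences of the sex chromosomes that were left out had ratios of 10.5 (8.66 to 12.9, 19 regions of X_random) and 9.89 (9.53 to 10.2, 1024 regions of Y_random). Both lay above the 6.84 of the autosomal and unknown contigs by more than counting error. Against the contigs without 1_random and 8_random, at 8.57 (8.21 to 8.94), only Y_random lay apart, and the interval of X_random overlapped.

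**Figure D4:**
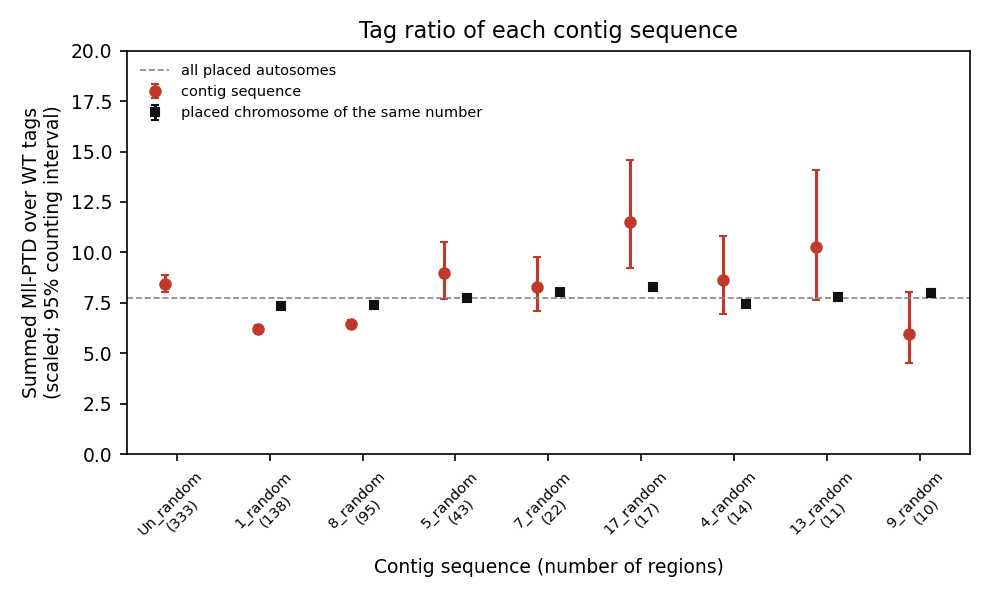
Summed Mll-PTD over WT tags (y, scaled to the WT library, with 95% counting intervals) for the 9 contig sequences with more than 1 region (circles) and the placed chromosome of the same number (squares); the dashed line is all placed autosomes at 7.76. 1_random and 8_random lie below their placed chromosomes, and 17_random above.

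No WT tag was found in 90 of the 684 contig regions (13.2%, 10.7% to 15.9%), against 13.5% of all regions. The share is at the background, but it was uneven over the sequences. It was 3.86% on 1_random and 8_random together (9 of 233, 1.78% to 7.21%), 17.1% on Un_random (57 of 333, 13.2% to 21.6%) and 41.2% on 17_random (7 of 17, 18.4% to 67.1%). Length differs between these sequences, and regions without a WT tag were short. In regions of 501 to 1000 bases the share was 7.84% on 1_random and 8_random (4 of 51, 2.18% to 18.9%), 24.0% on Un_random (24 of 100, 16.0% to 33.6%) and 14.6% on the placed autosomes (13.9% to 15.3%). Here the interval of 1_random and 8_random overlapped both others, while that of Un_random lay above the autosomal one. In regions of 500 bases it was 11.9% (5 of 42, 3.98% to 25.6%), 18.5% (31 of 168, 12.9% to 25.2%) and 16.7% (16.2% to 17.2%), and the 3 intervals overlap. Of the 234 contig regions longer than 1000 bases, 2 had no WT tag, both among the 114 of 1001 to 2000 bases (1.75%, 0.213% to 6.19%). The share in that class was also low on the placed autosomes, at 4.89% (4.29% to 5.55%), and the intervals overlap.

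Regions without a WT tag held few tags, so their ratios are given as bounds with WT set at 3 tags in its library. These bounds leave out counting error in Mll-PTD, so exact lower limits are given beside them. The regions named here were picked for a high log2 ratio. The first, 1_random from 537186 to 537940, held 81 scaled Mll-PTD tags, with a bound of 27.0-fold and an exact lower limit of 21.6-fold. The region of 1_random from 65128 to 66032 held 64.5, with a bound of 21.5-fold and an exact lower limit of 17.1-fold. On Un_random, 968686 to 969806 (54.8 tags) and 660364 to 661474 (54 tags) had bounds of 18.3-fold and 18.0-fold. Their exact lower limits were 14.5-fold and 14.3-fold, and these are the 2 that exceeded 1000 bases. The regions from 1896094 to 1897091, 826204 to 827203, 1650558 to 1651499 and 1903601 to 1904533 of Un_random held 50.3, 47.3, 47.3 and 45.8 tags. Their bounds ran from 15.3-fold to 16.8-fold, and each exact lower limit was below its bound. The tags of the 6 regions on Un_random stood at 47.3 to 50.5 per kb, close to that sequence's median of 49.1. The caller's tag threshold holds weak regions near this density, so no conclusion is drawn from the closeness.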

How the data were processed

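Members, lists and limits were chosen with earlier results of these data known. Per the labels, chromatin was precipitated with Abcam ab8580, and Bowtie 0.12.7, HOMER 4.7 and mm9 are named per the submitters' processing notes. Per the file headers, regions came from HOMER in histone style on Mll-PTD tags with WT as input: 500-base peaks joined into regions, false discovery rate 0.001, 30 tags, 4-fold over WT and a Poisson p-value of at most 0.0001. As signal, the authors deposited Mll-PTD tags per 10000000, Mll-PTD tags scaled to WT, and WT tags, with 0.5 for 0 (read here as 0). The authors also deposited a ratio (fold), a p-value (not used), a peak score and a clonal fold for each region.

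A least-squares quotient of the Mll-PTD columns gave the WT total, and division by the library quotient of 0.750 returned whole Mll-PTD tags within 0.1 in all but 2 regions. Ratios are summed scaled Mll-PTD over WT tags. Intervals are exact Clopper-Pearson, and tags of 1 library are not independent molecules. Named regions were the 10 with the most tags, the 8 with the highest log2 ratio (pseudocount 1) whose tag count reached the median, the 5 highest and 5 lowest ratios with at least 50 WT tags, the 5 longest and the leader of each sequence. Blocks were added after seeing the data. Tested on simulated data with a ratio of 7 in 684 contig regions, and of 14 in 200 of them, the ratios came out at 7.12 and 13.8, and 97.4% of intervals held them. The simulation drew counting error alone and applied no tag or fold threshold. It gave 22 regions without a WT tag, against 90 in the data. It therefore checks the calculation and not the intervals of regions selected by the list. Software was scipy 1.17.1, pandas 2.3.3, numpy 2.4.6 and matplotlib 3.10.9 under Python 3.11.15.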

Additional observations from a re-analysis of the deposited data

How the results depend on the processing

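No alternative turned a direction, which the 4-fold threshold of the list fixes. The alternatives that drop 1_random and 8_random were chosen after seeing the data. The summed ratio of 6.84 became 6.64 in regions whose tag count reached the median, 6.52 without Un_random, 6.54 in regions of at least 1000 bases, 6.70 without the region with the most tags, 8.57 without 1_random and 8_random and 11.5 in regions of at least 8-fold; the last rises by construction. The median log2 ratio, 2.67, was 2.25 at a pseudocount of 5 and 2.80 without 1_random and 8_random. Regions of at least 8-fold numbered 316 of 684. They became 151 of 352 with a tag count that reached the median, 147 of 351 without Un_random and 97 of 234 at 1000 bases or more. The lower counts thus came from fewer regions. The share without a WT tag, 13.2%, became 5.40%, 9.40% and 0.855% under the same 3 settings and 18.0% without 1_random and 8_random. The median Mll-PTD density, 52.6 scaled tags per kb, became 64.3, 63 and 65.2 under those 3 and 48.9 without 1_random and 8_random. In regions of at least 8-fold alone, the ratio was 9.97 on 1_random, 9.31 on 8_random, 15.7 on Un_random, 20.5 on 5_random, 13.9 on 7_random, 18.6 on 17_random, 21.9 on 4_random, 15.0 on 13_random and 14.5 on 9_random. Without its region with the most tags 8_random stood at 5.97. Merging regions under 1000 bases apart moved no value beyond its interval and no count by over 1.5 times. Of 33 named regions, 8 moved beyond their interval with a pseudocount of 5 and 0 with one of 1 tag. Those 8 had no WT tag and an interval without an upper limit, so a higher value could not count as moved. With a pseudocount of 1, for example, 1_random from 537186 went from 27.0 to 82.0. No paired analysis was possible because there is 1 library for each group. Depth limits the small sequences, whose WT tags number 1 to 182.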

Other observations

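The authors' deposited table gives each region a score from the caller, whose unit is not given in the sources used here. In 271 of 684 contig regions (39.6%), and in 34.4% of those on the placed autosomes, the mean number of Mll-PTD tags per 500 bases was above that score. The region of 8_random from 814661 to 823579 had a score of 31 and a mean of 176 unscaled tags per 500 bases. The clonal fold in the authors' deposited table rises when tags pile on few positions. Its median was 0.75 in the contig regions and 0.74 on the placed autosomes. It was above 1 in 6 contig regions (0.877%), 5 of them on Un_random, against 3.69% of regions on the placed autosomes. The share on Un_random alone was also below the autosomal one.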
